A study of Mus musculus with 1037 samples.

Results

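Genes of bone morphogenetic protein (BMP) signalling were followed across sorted outer root sheath (ORS) cells of the mouse hair follicle. The set holds 10 genes, namely the ligands Bmp2, Bmp4 and Bmp6, the receptors Bmpr1a and Bmpr2, the target genes Id1, Id2 and Id3, and the inhibitors Smad6 and Fst. They were chosen by name, and each was found by its Ensembl identifier, so that the 10 genes are 10 of the 55335 gene rows of the count table. The rule that finds them uses names and no measured value.

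All cells came from skin of wild type mice and are labelled as hair follicle epithelial cells. LOS (lower ORS) and MOS and UOS (both labelled upper-middle ORS) are sorts of AnaVI, the end of hair growth, at postnatal day 15. The P17f plates are sorts of the upper ORS at CatVI, in the regression phase, at day 17, and OSalive and OSapop are sorts of the upper ORS at CatVII, at day 18. Of the P17f plates, pl1 and pl2 carry the label PhagoHFSC alive, pl5 the label PhagoHFSC apop and pl6 the label NonPhagoHFSC apop, where HFSC stands for hair follicle stem cell. The meaning of the letter f is not stated, and the labels give neither strain nor sex. The sort removed cells with Sca1, CD31, CD117, CD140a or CD45 on their surface and kept cells with CD34 and integrin α6. Annexin V, which binds dying cells, separated the alive gate, and LOS was taken from the dermal fraction of the skin, apart from the others. Cells of several mice were pooled before each sort and no animal is named, so each sort or plate is 1 sample without replicates. Stage, sort and library batch cannot be told apart, and no test between groups was possible.

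BMP ligands are secreted proteins that bind a complex of type I receptors, such as BMPR1A, and type II receptors, such as BMPR2. The active receptor phosphorylates SMAD1, SMAD5 and SMAD9, which join SMAD4 and enter the nucleus. Id1, Id2 and Id3 are direct targets and encode proteins that hold basic helix-loop-helix factors away from DNA. Smad6 is a target too, and its product blocks the receptor signal. Fst encodes follistatin, a secreted protein that binds activins and some BMPs. In the hair follicle, BMP signals are known to keep bulge stem cells quiescent and to be needed for differentiation of the hair shaft and inner root sheath.

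The DNA next to the start sites of the target genes is shown first, because SMAD complexes act on such genes through short elements. RefSeq promoter windows of assembly GRCm38.p6 were at hand for 7 of the 10 genes (Bmp4, Bmp6, Bmpr1a, Bmpr2, Id2, Id3 and Smad6). The 250 bases before the RefSeq start were searched on both strands for GGCGCC and GGAGCC, GC-rich elements bound by SMAD1 and SMAD5. CAGAC and GTCTAGAC, elements bound by SMAD4, were searched for too. Each stretch below lies on the strand of its gene, with its position on GRCm39 and the matching letters in capitals.

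Id2 chr12:25146305-25146334 (minus strand): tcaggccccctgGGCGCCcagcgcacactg
Id2 chr12:25146162-25146191 (minus strand): gtatgatggacgGGAGCCcttccaccaatg
Id3 chr4:135870934-135870963 (plus strand): cctcgcatccgaGGCTCCgctgtcctcggc
Id3 chr4:135870954-135870982 (plus strand): tgtcctcggcgtCAGACcagcctaaggaa
Id3 chr4:135871053-135871081 (plus strand): ggacccttggcgGTCTGttttgaataagg
Smad6 chr9:63929426-63929455 (minus strand): accagccccctcGGAGCCtcgggctcagca
Smad6 chr9:63929342-63929371 (minus strand): aatcagcgccgcGGAGCCgccaaagtgtct

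GGCTCC and GTCTG are the reverse complements of GGAGCC and CAGAC. All of these stretches lie within the untranslated leader of the canonical GENCODE transcript except the first of Smad6, which lies outside the annotated exons of that gene. A GC-rich element was found in 6 of the 7 windows and in 31.7% of all 32851 windows. CAGAC was found in 2 of the 7 windows and in 42.2% of all, and GTCTAGAC in none of the 7 and in 0.167% of all. The windows of the 3 target genes are GC-rich (62.8% for Id2, 62.8% for Id3 and 66.8% for Smad6, against a median of 52.4% over all windows), and their matches are not read against base composition here. These matches describe the sequence and no binding was measured here.

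A cell entered a group if 2000 or more genes were detected in it, which held for 463 of 1035 cells. LOS had 39 such cells, MOS 38, pl1 19, pl2 9, pl5 15, pl6 14 and OSapop 92. UOS and MOS together had 150, and OSalive had the rest (80.1% of its sorted cells, with 83.6% in UOS), while plates pl3 and pl4 had none. Summed counts of annotated genes ranged from 441410 in pl6 to 55537430 in OSalive, and the median per cell from 24765 in pl6 to 415779 in OSalive. A level is given in CPM, the counts of a gene per 1000000 of these annotated counts, with the exact 95% Poisson interval. PCR reads carried no molecular identifiers, so that intervals cover counting error only and not the spread between animals or cells. Levels of different genes are compared only per kb of canonical transcript.

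Markers of the labelled cells were checked in every group. The 9 genes of the ORS and bulge list, among them Krt5, Krt14, Sox9 and Lgr5, were detected in all groups. Their summed level was 4374 CPM in LOS, 4297 CPM in pl2 and 11492 to 24095 CPM in the other groups. Cd34, of the same list, had a count in 1 cell of each P17f plate. It stood at 5.73 CPM in pl1, 33.8 in pl2, 7.05 in pl5 and 9.06 in pl6. The other groups had 98.8 CPM in LOS, 98.4 in MOS, 321 in UOS, 575 in OSalive and 481 in OSapop. The 8 fibroblast and papilla genes summed to 5583 CPM in LOS, 1416 CPM in UOS and 15.9 to 976 CPM elsewhere. LOS also held all 3 endothelial genes (250.9 CPM in sum, against 0 CPM in pl5 to 202.01 CPM in pl1), although the sort removed cells with CD31, the product of Pecam1, and all 5 melanocyte genes (628 CPM, against 0 CPM in pl6 to 544 CPM in pl2). The 6 immune genes summed to 100.7 CPM in LOS and to 0 to 26.9 CPM elsewhere, with Cd207 at 0 in every group. The 6 genes of the inner root sheath and matrix, which are also follicle epithelium, summed to 3369 CPM in UOS, 1207 CPM in LOS and 129.5 to 473 CPM elsewhere. In 11 of the 39 LOS cells, 3 of 9 pl2 cells, 2 of 19 pl1 cells, 5 UOS cells (4.46%), 2 OSalive cells (1.6%), 1 of 92 OSapop cells and no cell of MOS, pl5 or pl6, these 4 lists together had more counts than Krt5 and Krt14. They are called marker-mixed cells here, a class set after the data had been seen.

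Per kb of transcript, Bmp2 was the most abundant of the 3 ligands in both CatVII sorts (20.9 CPM in OSalive and 19.2 in OSapop, against 0.852 or less for the others). Bmp4 had a count in 12.8% or less of the cells of any group. Bmp6 had a count in 26.3% of MOS cells, 20% of pl5 cells and 15.4% of LOS cells, and in fewer elsewhere. In these 3 groups Bmp2 was found in 7.89%, 6.67% and 12.8% of cells. Bmp2 (ENSMUSG00000027358.6, chr2:133394079-133404816, GRCm39) encodes a ligand with a broad role in skin and bone. It stood at 16.3 CPM in LOS, 10.2 in MOS, 37.6 in UOS, 0.716 in pl1, 32.3 in pl2, 13.2 in pl5, 6.80 in pl6, 74.7 in OSalive and 68.6 in OSapop. The 2 CatVII sorts were thus higher than every other group, and their own intervals overlapped (72.4 to 77.015 and 64.5 to 72.8 CPM). In each P17f plate all counts of Bmp2 came from 1 cell. Bmp2 had a count in 63 OSalive cells (50.4%), in 46 of 92 OSapop cells (50%) and in 35 UOS cells (31.2%). With every cell thinned to 10000 counts, which left out 1 OSalive and 6 OSapop cells, these shares were 29.8%, 34.9% and 15.2%.

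Bmp4 (ENSMUSG00000021835.15, chr14:46620250-46636745) encodes a ligand of the hair matrix and dermal papilla. LOS was the group with the highest level, at 22.6 CPM (17.3 to 28.999), above UOS at 3.85 CPM, pl1 at 3.58 CPM and OSalive at 1.71 CPM. No count was found in MOS, pl2, pl5, pl6 or OSapop, where 3 counts would be 1.61, 4.61, 2.64, 6.80 and 0.194 CPM. The LOS counts came from 5 of 39 cells, and 1 cell held 49.2% of them. Marker-mixed cells held 54.1% of the LOS counts of Bmp4, and the other LOS cells stood at 19.3 CPM. In OSalive, 2 cells (1.6%) had a count.

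Bmp6 (ENSMUSG00000039004.6, chr13:38529065-38684280) encodes a ligand made by inner bulge cells. Bmp6 was highest in MOS, at 34.2 CPM (26.4 to 43.7), and in pl5, at 27.3 CPM (18.6 to 38.8), whose intervals overlap. The level was 10.7 CPM in pl1, 4.61 in UOS, 3.06 in OSalive, 2.59 in LOS and 0.452 in OSapop, and no count was found in pl2 or pl6. In MOS, 10 of 38 cells had a count and 1 cell held 59.4% of the counts. In pl5, 3 of 15 cells had a count and 1 cell held 67.7%. Of the 3 listed markers of inner bulge cells, Krt6a was at 2302 CPM in pl5 and 158.9 in MOS, Krt75 at 27.3 in pl5 and 12.8 in MOS, against 568 in LOS, and Fgf18 had no count in pl5 or MOS.

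**Figure D1:**
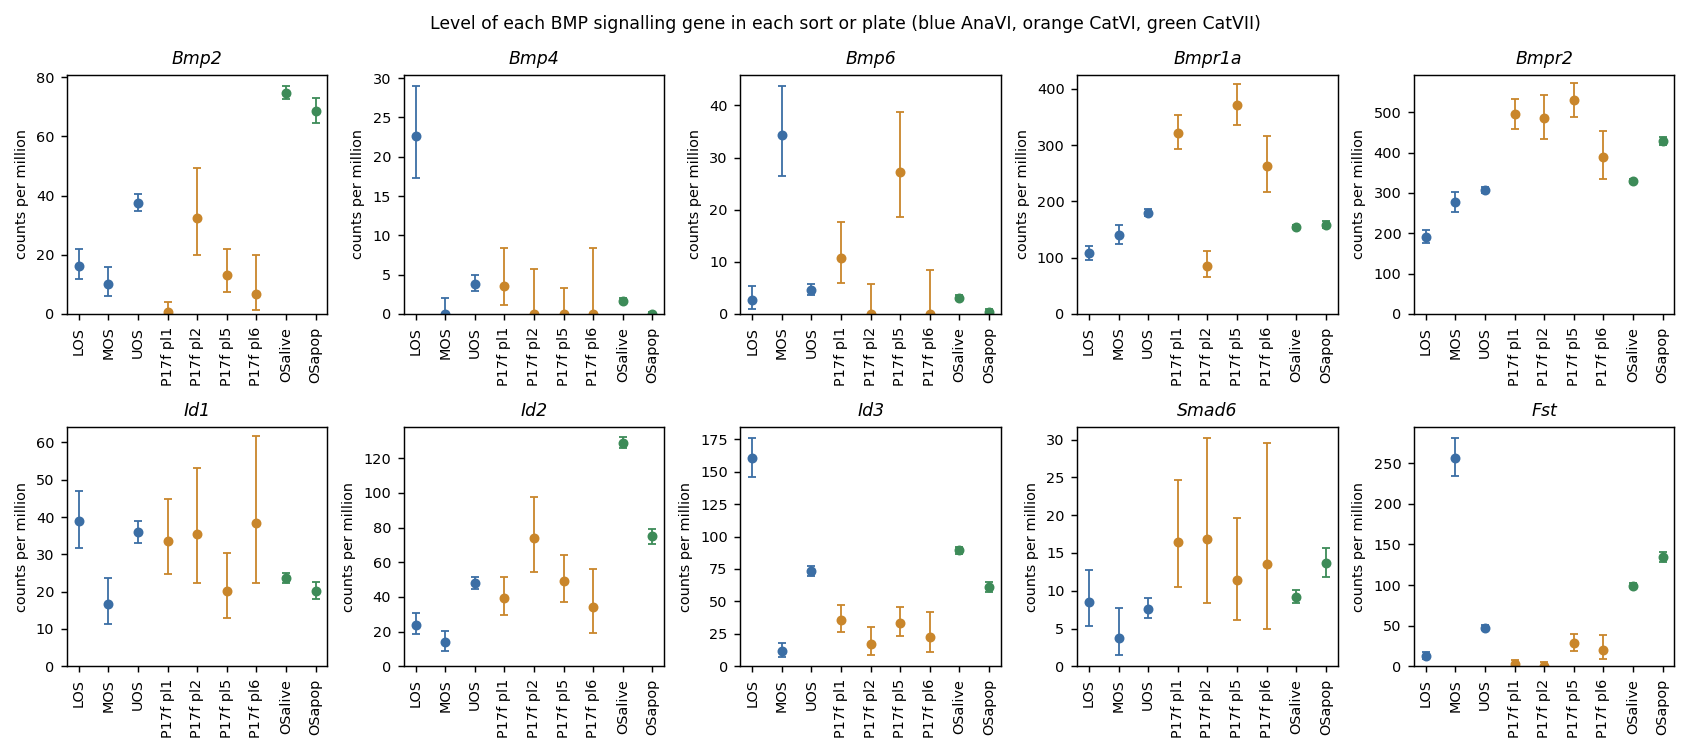
Level of each of the 10 genes in CPM of annotated counts (y axis, linear, starting at 0) in each sort or plate (x axis), with blue for AnaVI, orange for CatVI and green for CatVII. Points are summed levels and bars are exact 95% Poisson intervals of the counts. Bmpr1a and Bmpr2 lie above 80 CPM in every group, whereas Bmp2 and Id2 are highest in OSalive and Fst in MOS.

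The receptors were present in most cells of all groups and varied less between groups than the ligands did. Bmpr1a (ENSMUSG00000021796.15, chr14:34132687-34225379) encodes a type I receptor. Its level was 108.1 CPM in LOS, 140.7 in MOS, 179.9 in UOS, 322 in pl1, 86.1 in pl2, 371 in pl5, 262.8 in pl6, 154.8 in OSalive and 158.9 in OSapop. By summed CPM, plates pl1, pl5 and pl6 were higher than all other groups, and the fourth plate, pl2, was the lowest of all. The median over cells was 358.9 CPM in pl5, but 131.1 in pl1 and 115.7 in pl6, beside 133.7 in UOS and 128.6 in OSapop. In pl1, 1 cell held 32.7% of the Bmpr1a counts, and in pl6 1 cell held 31.9%. In pl2, 1 of 9 cells held 78.6% of the Bmpr1a counts. The highest level was 4.31 times the lowest.

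Bmpr2 (ENSMUSG00000067336.6, chr1:59802544-59918173) encodes the type II receptor. It stood at 191.7 CPM in LOS, 276.6 in MOS, 307 in UOS, 495 in pl1, 486 in pl2, 529 in pl5, 390 in pl6, 330 in OSalive and 429 in OSapop, so that the highest level was 2.76 times the lowest. The 4 plates and both CatVII sorts were above the 3 AnaVI sorts, with their intervals clear of that of UOS (299 to 316 CPM). Bmpr2 had a count in 77.8% (pl2) to 100% (pl5 and pl6) of the cells, and after thinning in 77.8% (pl2) to 100% (pl1). With all counts, both receptors were found together in 58.97% of LOS cells, in 85.7% of UOS cells and in 92% of OSalive cells. This order was not kept by the single receptors at equal depth. After thinning, which left out 13 LOS cells, Bmpr1a was found in 73.1% of LOS, 63.4% of UOS and 65.3% of OSalive cells. For Bmpr2 these shares were 84.6%, 81.25% and 83.9%. The share with both was not taken in thinned cells. Per kb of transcript, Bmpr1a lay between 14.2 and 61.1 CPM and Bmpr2 between 14.8 and 41 CPM.

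By summed CPM of all cells, the Id genes were lowest in MOS, and Id2 was highest in OSalive. For each Id gene the interval of MOS overlapped with that of the next group. Without marker-mixed cells, LOS stood at 13.1 CPM for Id1 and 7.60 CPM for Id2, below MOS. Id1 (ENSMUSG00000042745.9, chr2:152566218-152579544) had the narrowest range of the 3 genes. Its level was 38.9 CPM in LOS, 16.6 in MOS, 35.9 in UOS, 33.7 in pl1, 35.4 in pl2, 20.3 in pl5, 38.5 in pl6, 23.7 in OSalive and 20.2 in OSapop. From the highest, the groups ran LOS, pl6, UOS, pl2, pl1, OSalive, pl5, OSapop and MOS, and each overlapped with the next in its interval. The interval of MOS (11.3 to 23.5 CPM) lay below that of UOS (33.1 to 38.9 CPM).

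Id2 (ENSMUSG00000020644.9, chr12:25143798-25147282) was measured at 24.1 CPM in LOS, 13.9 in MOS, 47.9 in UOS, 39.4 in pl1, 73.8 in pl2, 49.3 in pl5, 33.98 in pl6, 128.9 in OSalive and 75.0 in OSapop. OSalive (125.97 to 131.96 CPM) did not overlap with any other group, and OSapop, pl2, pl5, UOS, pl1, pl6, LOS and MOS followed in an order in which each neighbour overlapped with the next. It had a count in 85.6% of OSalive cells, 64 of 92 OSapop cells (69.6%), 60 UOS cells (53.6%), 11 of 39 LOS cells (28.2%) and 10 of 38 MOS cells (26.3%). After thinning the shares were 48.4%, 39.5%, 26.8%, 7.69% and 14.3% in the same order of groups. The order of OSalive, OSapop and UOS was thus kept at equal depth.

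Id3 (ENSMUSG00000007872.3, chr4:135870808-135873066) encodes the third Id protein of the set. It stood at 160.2 CPM in LOS, 11.8 in MOS, 73.5 in UOS, 35.8 in pl1, 16.9 in pl2, 33.5 in pl5, 22.7 in pl6, 89.3 in OSalive and 60.9 in OSapop. LOS, OSalive, UOS and OSapop were clear of each other, and the 4 plates overlapped among themselves. A count of Id3 was found in 72.8% of OSalive cells, 65.2% of OSapop cells, 46.2% of LOS cells, 44.6% of UOS cells and 15.8% of MOS cells. With cells thinned, the shares were 45.97%, 32.6%, 38.5%, 27.7% and 14.3%.

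The high level of Id3 in LOS rested on few cells. A single LOS cell held 303 of the 433 counts (69.98%), along with 64.8% of the counts of Id1 and 66.2% of the counts of Id2. That cell had 306 counts of Pecam1, an endothelial gene, 664 of Krt5 and none of Krt14, among 771989 annotated counts. Marker-mixed cells together held 80.4% of the LOS counts of Id3, 81.9% of those of Id1 and 83.1% of those of Id2, but 46.4% of all annotated counts of LOS. With these cells left out of LOS and UOS, the log2 ratio of LOS to UOS was -0.34 for Id3, -1.5 for Id1 and -2.75 for Id2, against 1.13, 0.11 and -0.99 with them. All 3 Id genes were thus lower in the remaining LOS cells than in UOS, by less than 2-fold for Id3. The same class held 90.9% of the Id3 counts and 70.8% of the Id2 counts of pl2, and under 10% of the counts of any Id gene in UOS, OSalive and OSapop.

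**Figure D2:**
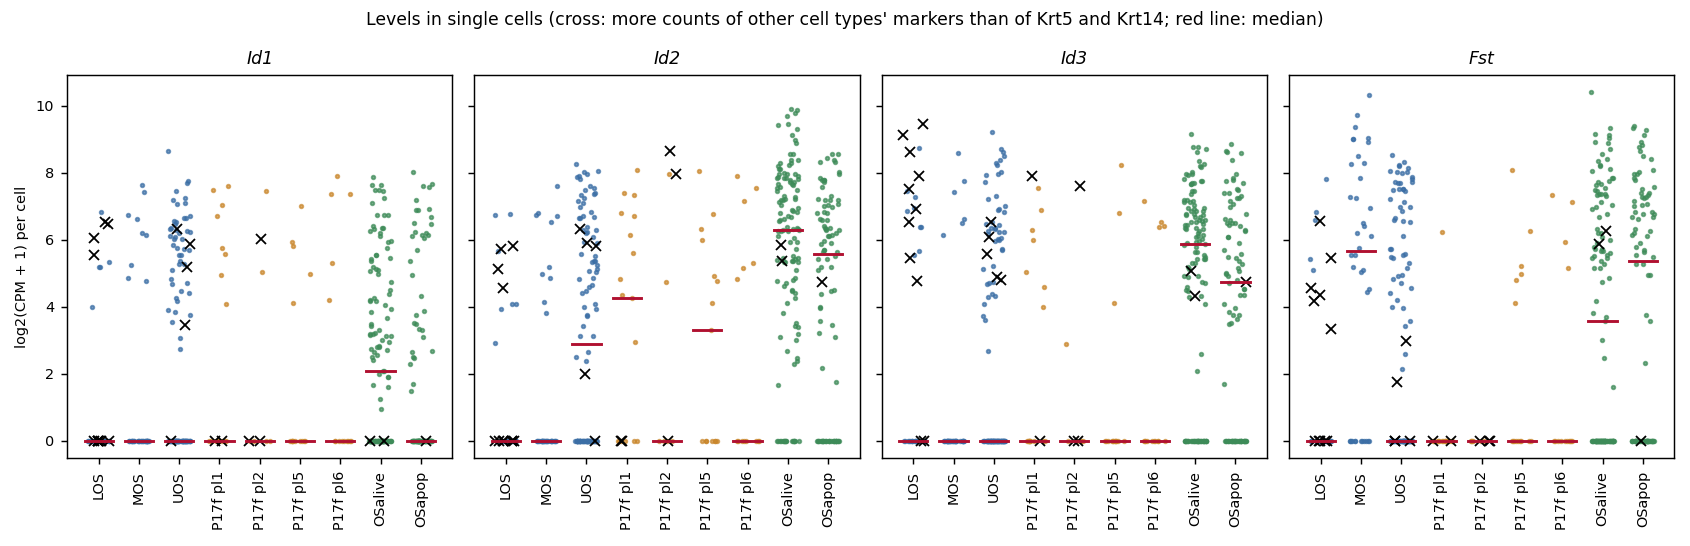
Level of Id1, Id2, Id3 and Fst in single cells as log2(CPM + 1) (y axis) in each sort or plate (x axis). Dots are cells coloured by stage (blue AnaVI, orange CatVI, green CatVII), crosses are cells with more counts of other cell types' markers than of Krt5 and Krt14, and red lines are medians. In LOS the highest cells for Id3 are crosses, and the median of Id2 is above 0 in UOS, pl1, pl5, OSalive and OSapop.

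In UOS, cells with 1 Id gene more often held another than independent spread would give. There, 36 cells had both Id1 and Id2, where 27.3 would be expected, and 34 cells had Id1 and Id3 against 22.8. Spearman's rho over the UOS cells was 0.31 for Id1 and Id2, 0.42 for Id1 and Id3 and 0.32 for Id2 and Id3, and 0.21, 0.27 and 0.24 after thinning. After thinning the same pairs gave 0.28, 0.30 and 0.32 over 35 MOS cells, 0.33, -0.08 and 0.11 over 26 LOS cells, 0.10, 0.04 and 0.24 over the OSalive cells and 0.27, -0.29 and -0.06 over 86 OSapop cells, so that not all sorts followed UOS. These values describe cells that share a library and differ in depth, and the counts are sparse. No Id gene was found in 46.2% of LOS cells, 57.9% of MOS cells, 25.9% of UOS cells, 4.80% of OSalive cells and 17.4% of OSapop cells. All 3 were found in 12.8%, 5.26%, 24.1%, 40% and 23.9% of these cells. These shares use all counts, and median depth ran from 29352 annotated counts in MOS to 415779 in OSalive. At 10000 counts per cell, Id1 was found in 13.7% of OSalive and 22.3% of UOS cells, against 56.8% and 45.5% with all counts. Id2 and Id3 stayed more frequent in OSalive than in UOS. The shares with none or all 3 were not taken at equal depth.

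Of the inhibitors, Smad6 was low in all groups and Fst ranged widely. Smad6 (ENSMUSG00000036867.7, chr9:63860341-63929793) stood at 8.51 CPM in LOS, 3.75 in MOS, 7.59 in UOS, 16.5 in pl1, 16.9 in pl2, 11.5 in pl5, 13.6 in pl6, 9.22 in OSalive and 13.6 in OSapop. From the highest, the groups ran pl2, pl1, OSapop, pl6, pl5, OSalive, LOS, UOS and MOS, and each overlapped with the next. OSapop (11.9 to 15.6 CPM) was above OSalive (8.44 to 10.1 CPM), and UOS (6.34 to 9.01 CPM) overlapped with OSalive.

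Fst (ENSMUSG00000021765.9, chr13:114588731-114595521) was highest in MOS, at 256.8 CPM (234.3 to 280.8), followed by OSapop at 134.6 CPM, OSalive at 99.4 CPM and UOS at 47.5 CPM. None of these 4 intervals overlapped. The level was 28.2 CPM in pl5, 20.4 in pl6, 12.6 in LOS and 2.87 in pl1, and no count was found in pl2, where 3 counts would be 4.61 CPM. Fst had a count in 26 of 38 MOS cells (68.4%), and no cell held over 28.3% of the MOS counts. The share was 57.6% in OSapop, 52.8% in OSalive and 47.3% in UOS, against 28.2% in LOS and 5.26% in pl1. After thinning it was 48.6% in MOS, 47.7% in OSapop, 31.5% in OSalive and 29.5% in UOS. Per kb, Fst in MOS stood at 136.1 CPM, above Bmpr1a at 23.2 and Bmpr2 at 21.4 in the same cells.

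**Figure D3:**
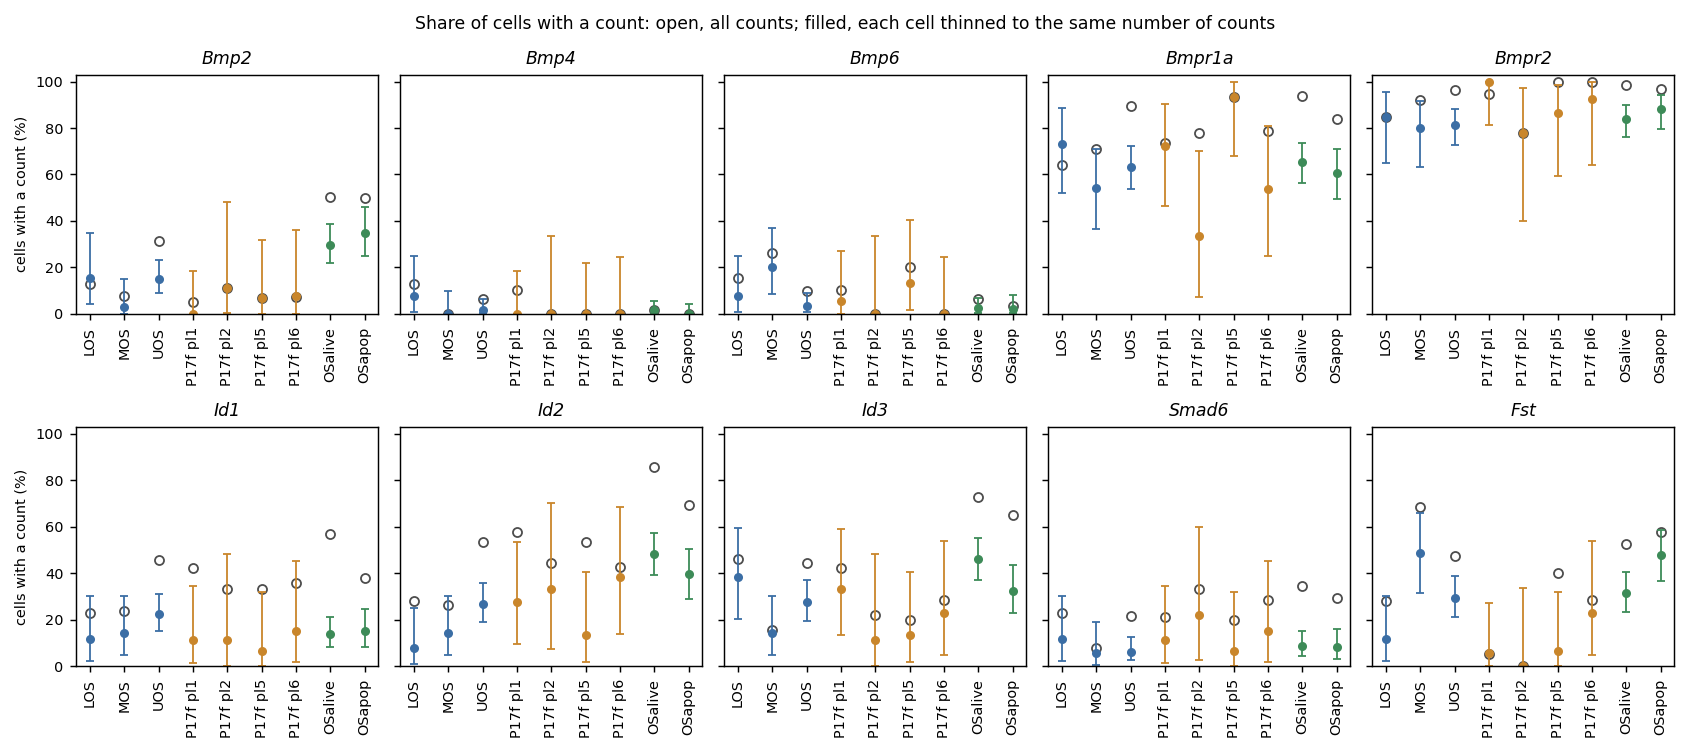
Share of cells with at least 1 count of each gene (y axis, percent) in each sort or plate (x axis). Open circles use all counts of a cell, and filled circles with exact 95% binomial intervals use cells thinned to 10000 counts, which leaves out shallower cells. The thinned share of Id2 is 48.4% in OSalive and 14.3% in MOS, and that of Bmpr2 stays above 75% in every group.

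Differences between groups were read as log2 ratios of summed CPM, with the exact binomial interval of the counts, for genes whose 2 groups together held 100 counts or more. A ratio of 2-fold or more is called past 2-fold, and the share of all annotated genes past 2-fold is given beside the first count of the 10 genes in each comparison. Without replicates this is a rule of size and not a test.

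MOS and UOS carry the same region label and stage, yet differed in 7 of the 9 genes that could be compared. Fst (log2 ratio of MOS to UOS 2.44, 2.27 to 2.6) and Bmp6 (2.89, 2.39 to 3.39) were higher in MOS, whereas 9.38% of all 11059 genes were that much higher. Bmp2 (-1.89, -2.63 to -1.23), Id1 (-1.11, -1.68 to -0.59), Id2 (-1.79, -2.41 to -1.22), Id3 (-2.64, -3.32 to -2.04) and Smad6 (-1.02, -2.36 to 0.06) were lower, against 18.9% of all genes. The interval of Smad6, which had 7 counts in MOS, includes no difference. The receptors were within 2-fold, at -0.35 for Bmpr1a and -0.15 for Bmpr2, and the median of all genes was -0.11. Cells of MOS were shallower (median 29352 annotated counts against 108328 in UOS). In cells thinned to 10000 counts, only Bmpr1a, Bmpr2 and Fst reached 100 counts, and Fst stood at 1.66. With all gene rows in the denominator, 22.1% of the genes past 2-fold were higher in MOS against 33.1% here, and 20.8% with median-of-ratios scaling, while the 10 genes kept 2 higher and 5 lower. Without the cell with the most counts of a gene, the ratios were 2.25 for Fst, -1.67 for Id1, -1.87 for Id2 and -2.81 for Id3. With every cell weighted equally, Id3 stood at -1.02, and Id1 (-0.65) and Smad6 (-0.48) were within 2-fold.

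LOS differed from UOS by 2-fold or more in 4 of 9 genes. Bmp4 (log2 ratio of LOS to UOS 2.55, 2.02 to 3.08) and Id3 (1.13, 0.96 to 1.28) were higher, against 14% of all 11418 genes. Bmp2 (-1.21, -1.68 to -0.77) and Fst (-1.92, -2.46 to -1.42) were lower, against 14.5% of all genes. Without marker-mixed cells 3 of 8 genes were past 2-fold, all of them lower in LOS (Fst at -2.55, Id2 at -2.75 and Id1 at -1.5), while Bmp2 was within 2-fold at -0.94. Bmp4 had 92 counts over both groups, under the minimum, at a log2 ratio of 2.21 (1.52 to 2.88). Without the top cell of each gene, Id3 stood at 0.34, and with every cell weighted equally at 0.76. Median-of-ratios scaling put 36.2% of the genes past 2-fold on the higher side, against 49.1% here, and Id3 at 0.92.

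To compare CatVII with AnaVI, OSalive was set against UOS and MOS together. Id2 (log2 ratio of OSalive to AnaVI 1.53, 1.43 to 1.64) and Bmp2 (1.10, 0.98 to 1.22) were higher, as were 16.2% of all 14158 genes. Bmp4 (-1.02, -1.49 to -0.55) and Bmp6 (-1.30, -1.63 to -0.97) were lower, as were 18.7% of all genes. Id3 was at 0.41, Smad6 at 0.35, Fst at 0.55, Bmpr2 at 0.12, Bmpr1a at -0.19 and Id1 at -0.52, all within 2-fold. With all gene rows in the denominator, in which 1 unannotated identifier holds 65.5% of the counts, Bmp2 stood at 0.74 and Id2 at 1.18, and 29.6% of the genes past 2-fold were higher, against 46.5% here. Against UOS alone Bmp2 was at 0.99 and Bmp6 at -0.59, both within 2-fold. With every cell weighted equally Bmp2 was at 0.94 and Bmp4 at -0.76, and median-of-ratios scaling put Bmp4 at -0.97. In thinned cells Bmp2 was at 0.96. Against UOS alone the ratio of Fst was 1.07, and against MOS alone it was -1.37, so that its direction depends on the AnaVI sort. Id1 (0.52) and Bmpr1a (0.14) also turned to the higher side against MOS alone. Id3 stood there at 2.92 and Smad6 at 1.30, past 2-fold. The pooled AnaVI reference is mostly UOS, with 17125620 annotated counts against 1869292 of MOS.

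The P17f plates, with 57 cells in all, differed from UOS and MOS in 4 of 9 genes. Smad6 (log2 ratio of P17f to AnaVI 1.02, 0.53 to 1.49) was higher, against 12% of all 11632 genes. Bmp2 (-1.66, -2.16 to -1.20), Id3 (-1.16, -1.46 to -0.88) and Fst (-2.45, -2.92 to -2.03) were lower, against 25.9% of all genes. Bmpr1a (0.71) and Bmpr2 (0.69) were higher by less than 2-fold, while the median of all genes was -0.23. Bmp6 was higher too, at 0.75 (0.24 to 1.24). Id1 (-0.16) and Id2 (0.11) had intervals that include no difference. Median-of-ratios scaling put Smad6 at 0.92, and it was at 0.95 against UOS alone. With every cell weighted equally Id3 was at -0.61. Without pl1, Bmp2 stood at -0.99 and Smad6 at 0.90, which left 2 genes past 2-fold. Against MOS alone, Id3 (1.35), Id2 (1.79) and Bmpr1a (1.03) were higher in the plates by 2-fold or more. Id1 was at 0.87 and Fst at -4.37 in that setting. Bmp6 stood at 1.46 against UOS alone and at -1.43 against MOS alone, so that its direction depends on the AnaVI sort.

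OSapop was close to OSalive. Only Bmp6 was past 2-fold (log2 ratio of OSapop to OSalive -2.76, -4.10 to -1.69) with 7 counts in OSapop, against 13% of all 13806 genes lower, and none of the 10 was that much higher, against 8.6% of all genes. Id2 (-0.78, -0.87 to -0.69), Id3 (-0.55, -0.65 to -0.45) and Id1 (-0.23, -0.41 to -0.05) were lower, while Smad6 (0.56), Fst (0.44) and Bmpr2 (0.38) were higher, all within 2-fold. With every cell weighted equally, Smad6 turned to the lower side in OSapop (-0.38), and it had a count in 29.3% of OSapop and 34.4% of OSalive cells. Bmp2 (-0.12) and Bmpr1a (0.04) were nearly level.

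**Figure D4:**
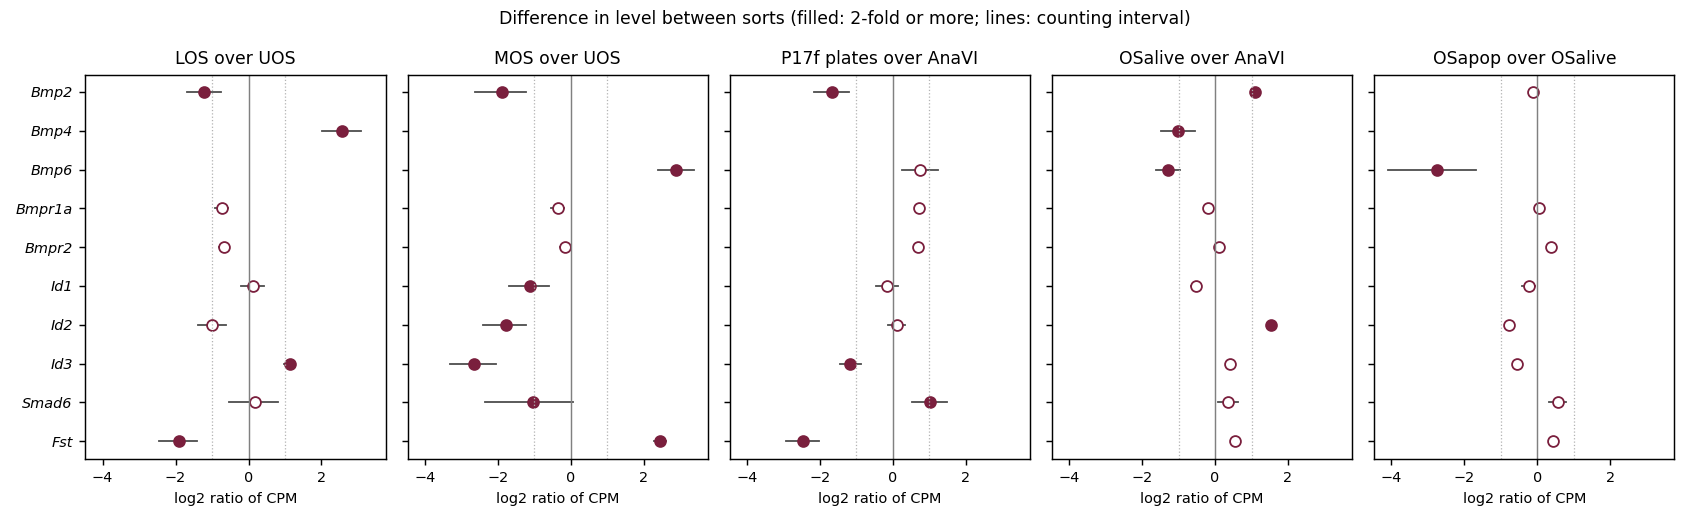
Log2 ratio of CPM of each gene (x axis) in 5 comparisons (panels), with 95% counting intervals as lines, filled circles for a ratio of 2-fold or more and open circles for smaller ones. Genes under 100 counts over both groups are left out, and dotted lines mark 2-fold. The panel of MOS over UOS holds 7 filled circles, and that of OSapop over OSalive holds 1.

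Among the P17f plates, few of the 10 genes had enough counts. In pl5 against pl1 and pl2, which share the PhagoHFSC label and differ in the gate, Bmpr1a (log2 ratio 0.59), Bmpr2 (0.11) and Id2 (-0.03) were within 2-fold, against 11.9% of all 5232 genes higher and 20.6% lower. In pl5 against pl6, Bmpr1a (0.50) and Bmpr2 (0.44) were within 2-fold, against 20.4% of all 2822 genes higher and 8.58% lower. Plates pl1 and pl2 carry the same label and show how far such plates can lie apart. Bmpr1a differed between them by 1.90 and Id2 by -0.91, 37.1% of all 3773 genes were higher in pl1 and 10.3% lower, and the median of all genes was 0.57. Mitochondrial genes took 32.8% of the annotated counts in pl2 and 12.98% in pl1. Without these genes in the denominator, 62.97% of the genes past 2-fold were higher in pl1, against 78.3% with them, and Id2 was past 2-fold too.

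The other genes of the pathway were taken from a list of 38, with 7 ligands, 8 receptors and co-receptors, 4 transducers, 14 inhibitors and 5 targets. In MOS over UOS, 4 of the 24 with enough counts were higher by 2-fold or more and 5 were lower (9.38% and 18.9% of all genes were). In LOS over UOS, 6 of 26 were higher and 6 lower (14% and 14.5% of all genes). In P17f over AnaVI, 5 of 27 were higher and 6 lower (12% and 25.9% of all genes). In OSalive over AnaVI, 8 of 31 were higher and 3 lower (16.2% and 18.7% of all genes). In OSapop over OSalive, 0 of 30 were higher and 4 lower (8.6% and 13% of all genes). Their median log2 ratios were -0.19, 0.06, -0.32, 0.08 and -0.18 in that order, beside -0.11, 0.03, -0.23, 0.04 and -0.01 for all genes. Between plates, 3 of 18 were higher and 5 lower in pl5 over pl1 and pl2 (11.9% and 20.6% of all genes), 3 of 11 were higher and 0 lower in pl5 over pl6 (20.4% and 8.58%), and 4 of 12 were higher and 0 lower in pl1 over pl2 (37.1% and 10.3%). With so few genes in the list, these counts are given as a description.

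Grem1, which encodes the secreted BMP antagonist gremlin, had the widest range of all pathway genes. It stood at 140.2 CPM in MOS, 173.6 in UOS, 417 in OSalive and 462 in OSapop, and had no count in LOS or in any of the 4 plates. With 3 counts as the floor, it was at least 156.4-fold lower in LOS than in UOS and at least 205.7-fold lower in the plates than in UOS and MOS. A count of Grem1 was found in 6 of 38 MOS cells, in 57 UOS cells and in 90 OSalive cells. The plates thus differed from both the earlier and the later upper sorts in this gene.

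Bmp7, a further ligand, was at 239.97 CPM in pl1, 227.3 in pl5 and 313 in pl6, and at 30.8 CPM in pl2 and 59.5 to 120.4 CPM in the other groups. Sostdc1, an antagonist of BMP and Wnt signals, was at 291.7 CPM in OSalive, 317 in OSapop, 199.99 in pl5 and 134.2 in UOS, against 16.7 in LOS. The inhibitory Smad7 and the pseudoreceptor Bambi were, like Id1 to Id3, lower in MOS (2.14 and 1.07 CPM) than in UOS (12.03 and 9.40 CPM). Msx2, a target in the hair matrix, was at 8.56 CPM in MOS and 39.5 in UOS. These 3 genes were higher in LOS, at 53.7, 56.3 and 96.2 CPM, and Msx1 stood there at 86.2 CPM against 15.4 CPM in UOS. All LOS levels of the other pathway genes, here and below, include the marker-mixed cells, which held 46.4% of the annotated counts of LOS. How far those cells account for these levels was not tested.

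Id4, a relative of the Id genes that is often regulated differently, did not follow Id2. It stood at 85.7 CPM in UOS and 70.6 in MOS, and at 16.5 in OSalive and 9.62 in OSapop, a log2 ratio of OSalive to AnaVI of -2.35 (-2.47 to -2.23). Smad9, which encodes a receptor-regulated SMAD, went the other way, with 69.6 CPM in OSalive and 49.7 in OSapop against 5.55 in UOS and no count in MOS. The other transducers Smad1 (30.8 to 133.7 CPM), Smad4 (55.4 to 158.5 CPM) and Smad5 (104.8 to 217.8 CPM) were found in every group. The type I receptor Bmpr1b was at 0.740 CPM or less throughout, so that Bmpr1a, Acvr1 (7.69 to 63.4 CPM) and Acvrl1 (0 to 100.6 CPM) were the listed type I receptors above that level in some group.

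Several other pathway genes differed by 4-fold or more somewhere. The type I receptor Acvrl1 was at 100.6 CPM in MOS and 24.1 in UOS, and lower in the plates than in AnaVI (log2 ratio -3.14). The type II receptor Acvr2b was at 18.1 CPM in LOS against 3.15 in UOS, while Acvr2a lay between 68.1 and 220.4 CPM. Chrd, which encodes the antagonist chordin, was at 101.004 CPM in pl1 and 43.04 in pl6 and had no count in pl2 or pl5, so that plates of the same label differed in it. The related antagonist Chrdl1 was at 3.67 CPM in OSalive and at least 19-fold lower in OSapop, which had no count. Bmp3, a ligand that opposes other BMPs, was at 12.3 CPM in UOS and had no count in MOS. The co-receptor Rgma was at 345 CPM in MOS and 200.9 in pl5, against 18.45 to 157.6 CPM in the other groups.

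The remaining genes at 50 CPM or more in a group were found in all 9 groups. Among secreted modulators, Twsg1 lay between 78.5 and 445 CPM, Nbl1 between 67.7 and 373, Fstl1 between 61.2 and 398 with the highest level in LOS, and Fstl3 between 9.22 and 112.1 CPM. The ubiquitin ligases Smurf1 (35.4 to 113.9 CPM) and Smurf2 (31.7 to 106.1 CPM), which act on SMADs and receptors, the co-receptor Rgmb (28.2 to 99.3 CPM) and the target Dlx3 (30.8 to 272.02 CPM) had no group without counts.

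**Figure D5:**
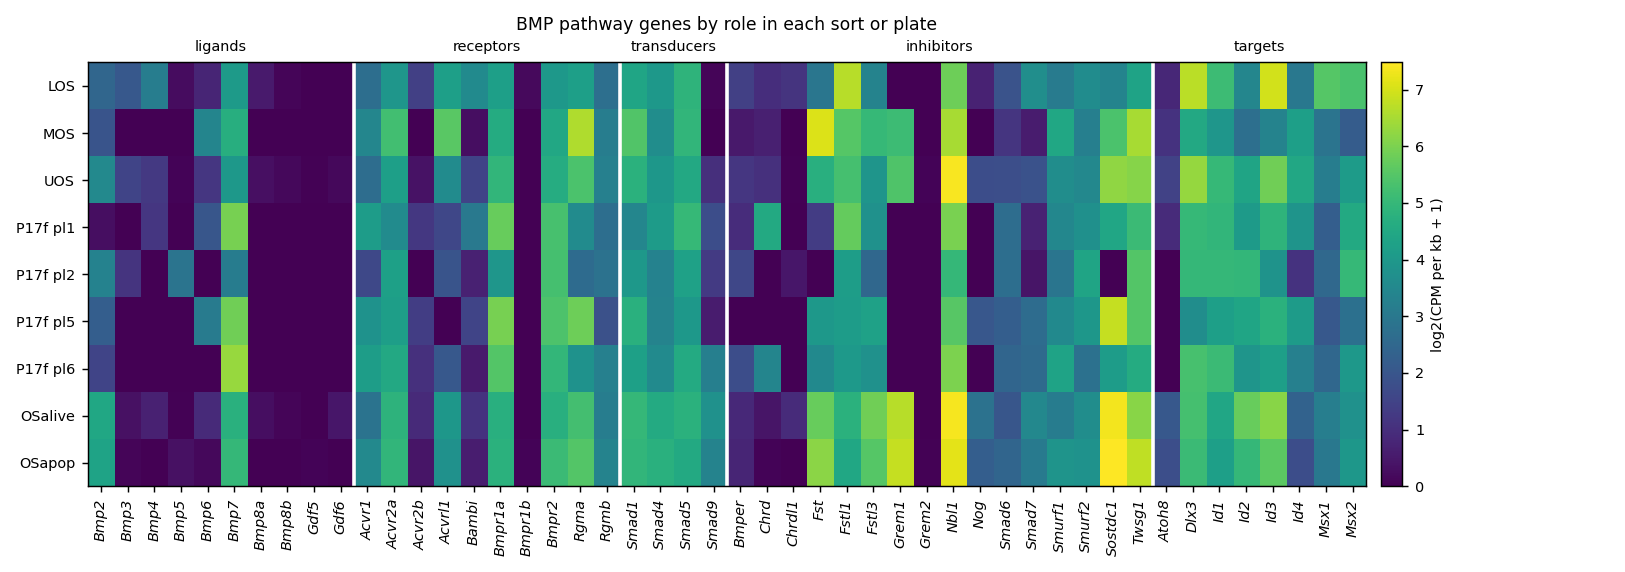
Level of the 10 genes and the 38 other pathway genes as log2(CPM per kb + 1) (colour), ordered by role (columns) in each sort or plate (rows). Dark cells are near 0. Grem1 is dark in LOS and in all 4 P17f plates, and Bmpr1a, Bmpr2 and Smad5 are bright in every row.

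For each of the 10 genes the annotated gene with the most similar pattern was sought, by Pearson's r of log2(CPM + 1) over the 9 groups among 8913 genes that reached 20 CPM in a group and had a count in 75 or more cells. With 9 points and so many candidates, high values arise readily, and they are given as a description. The nearest gene was Gnai1 for Bmp2 (r = 0.96), Rnaseh2a for Bmp4 (0.99), Neu1 for Bmp6 (0.94), Skap2 for Bmpr1a (0.96), Lpar2 for Bmpr2 (0.94), Gtf2f2 for Id1 (0.93), Mitf for Id2 (0.95), Col1a2 for Id3 (0.92), Gm38036 for Smad6 (0.94) and Serpinb5 for Fst (0.98). Col1a2, a collagen gene of fibroblasts, is itself one of the markers that define the marker-mixed cells. It stood at 919 CPM in LOS, where those cells held most of Id3, and a link between Col1a2 and Id3 was not tested.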

How the data were processed

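Estimated counts per gene of Smart-seq2 libraries of single cells were deposited by the authors. Reads had been trimmed, aligned with STAR 2.6 to mm39, quantified with Salmon 1.4.0 and summed per gene with tximport in R 3.6.1, without normalization. Here, counts were rounded to whole numbers. Of the gene rows, 93.3% were found in GENCODE vM39 (GRCm39). ERCC rows and identifiers absent from the annotation, which hold 79.2% of the counts of passing cells, were left out of totals. The kit does not mark strand, so reads of antisense or overlapping genes cannot be told apart, and another annotated gene overlaps all of the 10 genes except Bmp2 and Smad6.

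Cells were grouped by their labels. Left out were 1 cell with conflicting stage labels, 1 without a column of counts, and cells with under 2000 detected genes. Well labels are shared by 2 cells in 160 cases, 99 of them with both cells passing. Wells with more than 1 cell had been screened out by qPCR before sequencing, per the labels, and no doublet caller was run. Counts were summed per group. A gene at 0 in 1 group was set to 3 counts for a ratio. Intervals are exact (Poisson, binomial, Clopper-Pearson) at 95%. Thinning drew 10000 annotated counts per cell. The ratio script was tested on simulated data. Python 3.11.15, numpy 2.4.6, pandas 2.3.3, scipy 1.17.1 and matplotlib 3.10.9 were used.

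The 10 genes and all lists were chosen with earlier results of these data known. Named were the 10 genes, listed pathway genes at 50 CPM or more in a group or past 4-fold in a comparison, the gene most like each in pattern, and listed markers. Bmpr1b was named after its values were seen. Alternatives concerned the denominator, the scaling, the weight of cells, depth, filters and the groups compared. Alternatives without mitochondrial genes and without marker-mixed cells were added after seeing the data.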

Additional observations from a re-analysis of the deposited data

Results flagged for a closer look

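Fst had 7 counts, all in 1 cell, in plate pl4 of the P17f sorts (NonPhagoHFSC alive). The 57 cells of that plate all fell under 2000 detected genes and hold 2420 annotated counts in all. The value stands out because 7 is above the 3 counts that a count of 0 allows, in cells that no comparison uses. None of the other 9 genes had a count there or in pl3, where 67 cells hold 872 annotated counts.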

How the results depend on the processing

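No paired analysis was possible because no result comes from a test and no animal is named. Over all alternatives, 545 of 585 log2 ratios of the 10 genes kept their direction. These include 54 of 54 from the setting without a count minimum. That setting reuses the main ratios, so their direction could not change. Of the values past 2-fold, 15 of 21 stayed past it with the mean over cells, 5 of 8 with UOS alone as the AnaVI reference, 3 of 4 in thinned cells, 16 of 20 without marker-mixed cells, 18 of 21 with median-of-ratios scaling and 20 of 21 with all gene rows in the denominator.

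In cells thinned to 10000 counts, the genes past 2-fold numbered 0 in LOS over UOS (2 genes with enough counts), 1 in MOS over UOS (of 3), 1 in P17f over AnaVI (of 4), 1 in OSalive over AnaVI (of 6) and 0 in pl1 over pl2 (of 1), with fewer of the 10 genes at 100 counts in each. Without a count minimum they numbered 2 in OSapop over OSalive, 2 in pl5 over pl1 and pl2, 1 in pl5 over pl6 and 4 in pl1 over pl2. The mean over cells gave 2 in OSalive over AnaVI, and leaving out pl1 gave 2 in P17f over AnaVI. In pl1 over pl2 there were 2 with all gene rows, 2 without the top cell of each gene and 2 without mitochondrial genes. Id3 turned direction in LOS over UOS without marker-mixed cells (-0.34) and in P17f over MOS alone (1.35), and the cause was not tested. Other scalings shifted log2 ratios by -0.37 to 0.13.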
